A study of Homo sapiens with 12 samples.

Results

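Withaferin A (WA) was studied here in MM1S, the glucocorticoid-sensitive member of a pair of multiple myeloma cell lines. The comparison took the 3 RNA-seq libraries of MM1S exposed to WA (1 µM, 3 h) and the 3 libraries of untreated MM1S, which are 6 of the 12 libraries of the series. The members were found by the line, treatment and passage number in the sample labels, and each WA culture was paired with the untreated culture of the same passage (16, 22 or 23). The other 6 libraries are untreated and WA-exposed MM1R, the glucocorticoid-resistant subline, at passages 4, 6 and 7. The labels call the controls untreated and name no vehicle, so that WA and the solvent it was kept in cannot be told apart. MM1S is an established line from 1 patient. The study's methods call the replicates biologically independent samples, and they differ in passage number. The comparison asks which transcripts moved within 3 h of WA in cells that still respond to glucocorticoids.

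WA is a steroidal lactone of the plant Withania somnifera that reacts with cysteines of many proteins. Cells answer damaged or misfolded protein mainly through heat shock factor 1, which is held back by chaperones and, once released, binds heat shock elements in the promoters of chaperone genes. Electrophiles that modify the sensor KEAP1 release NRF2 (the product of NFE2L2), which acts on antioxidant response elements in genes of glutathione, thioredoxin and heme metabolism. The integrated stress response works through phosphorylated eIF2α and the factors ATF4 and CHOP (DDIT3), and it raises genes of amino acid supply and of translational recovery. Myeloma cells are antibody-secreting plasma cells with a high load of protein folding, and their growth rests on a circuit of IRF4 and MYC.

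Of the 14085 genes tested, 3399 (24.1%) passed an adjusted p of 0.05 with WA, 1756 (12.5%) higher and 1643 (11.7%) lower. The test was edgeR's quasi-likelihood test with passage as the block and Benjamini-Hochberg adjustment. Without the block, 1476 genes (10.5%) passed, 880 higher and 596 lower, and all 1476 were among the 3399. Most changes were small, since 2762 of the 3399 were under 2-fold. The larger changes were mostly increases. By at least 1 on the log2 scale 511 genes were higher and 126 lower (80.2% higher). By at least 2, 121 were higher and 12 lower (91% higher). Fold changes below are log2 values over the 3 MM1S pairs. The standard error (SE) given is approximate: the size of the fold change divided by the square root of the test's F statistic. The spread in that test was estimated over all 12 libraries. For large changes this SE can understate the uncertainty: it was 0.37 for HSPA6 and 0.38 for PGF, beside 0.66 and 1.26 by DESeq2. Levels are CPM (reads per 1000000 counted reads after scaling of the library sizes by TMM factors). The untreated and the WA libraries did not overlap in 79.4% of the called genes and in 30.3% of all genes tested. A change in level in these bulk cultures can come from a change per cell or from a change in which cells were left, and the data cannot tell these apart. The plot of fold change against level shows the increases of HSPA6, HMOX1, DNAJB1, BAG3 and HSP90AA1 standing far from the rest.

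**Figure D1:**
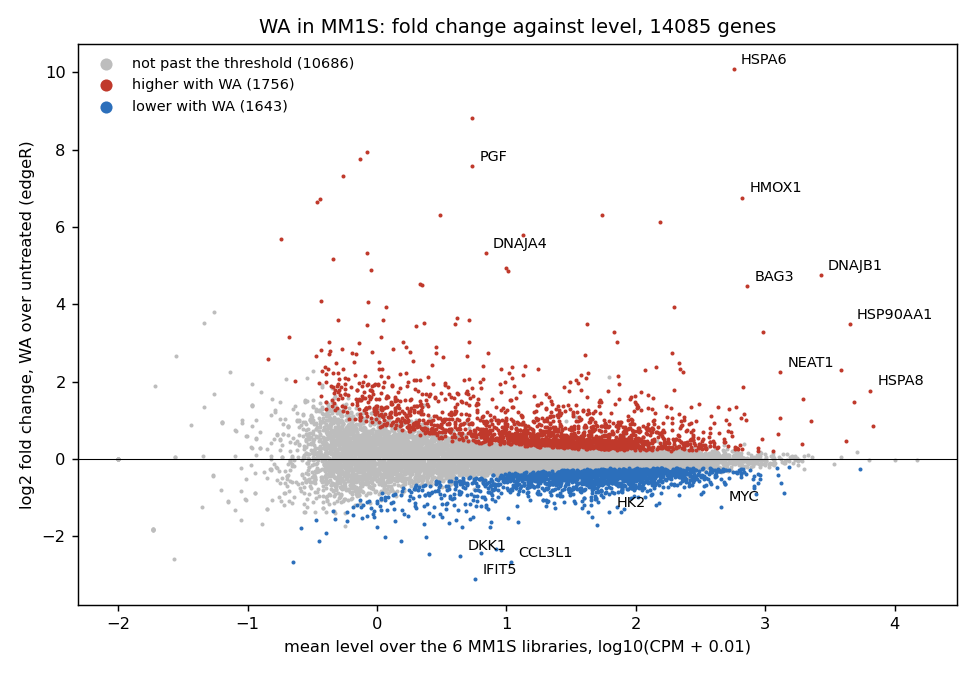
Fold change with WA (vertical axis, log2, edgeR) of each of the 14085 tested genes against its mean level over the 6 MM1S libraries (horizontal axis, log10 of CPM plus 0.01). Red points are the 1756 genes that were higher and blue points the 1643 that were lower at an adjusted p of 0.05, and the points beyond 4 in size are all increases.

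Between 18134877 and 19368343 reads were counted on genes in the MM1S libraries. The plasma cell markers SDC1 (644, 674 and 675 CPM untreated), XBP1 (1169, 1290.3 and 1239) and CD38 (54.3, 103 and 116) were present at passages 16, 22 and 23. The B-cell marker MS4A1 had at most 2 reads in an MM1S library, CD3D of T cells had 0, and the myeloid markers LYZ and CD14 had at most 1 and 6. Of 10 markers of other cells 4 passed the count filter: CD3E (T cells), EPCAM (epithelium), PECAM1 (endothelium) and COL1A1. The 10 together held 0.002% to 0.00346% of the reads untreated and 0.00226% to 0.00312% with WA. COL1A1, a collagen of fibroblasts, read 1.09, 0.62 and 0.447 CPM untreated and 6.01, 2.29 and 6.55 with WA, whereas COL1A2 had 0 reads. Reads on the mitochondrial ribosomal RNAs RNR1 and RNR2 were 0.407% to 0.687% of a library untreated and 0.824% to 1.12% with WA. The part of this share in the results was not tested. Several genes that every cell uses are listed at 0 to 7 reads (TUBB, RPS9, RPS25, LDHA, FBL), so a gene listed near 0 here is not read as silent.

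Cytosolic chaperones were among the largest increases. HSPA6, a stress-inducible HSP70 that unstressed cells barely express, read 0.984, 1.03 and 0.895 CPM in the untreated libraries of passages 16, 22 and 23 and 1265, 316 and 1845 CPM with WA. The lowest WA library, passage 22, was still far above every untreated one. Its log2 fold change was 10.07 with SE 0.37 and adjusted p = 7.96e-09. HSPA7, a near copy of HSPA6 that may share its reads, had 1 read in the 3 untreated libraries together and 217, 59 and 320 with WA, a ratio of summed counts of 631 (95% exact interval 112.8 to 24964, counting error only).

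HSPA1A and HSPA1B encode the main inducible HSP70, and their near-identical sequences are split over 10 entries of the table. Summed over these entries, the level was 6.32, 7.13 and 4.42 CPM untreated and 424.8, 235.9 and 631.4 CPM with WA. The entry HSPA1B_2 alone had a log2 fold change of 6.13 with SE 0.31 and adjusted p = 1.35e-07, and HSPA1B_1 of 6.31 with SE 0.23 and adjusted p = 7.96e-09. HSPA1B_4, among the 15 largest increases, had 4.88. How the reads fell among the copies is uncertain, but none of the summed values overlapped between the groups.

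HSPA8, the constitutive HSP70 of the cytosol, was already abundant at 2899, 2928 and 2905 CPM and reached 8413, 11606 and 10051 CPM, a log2 fold change of 1.77 with SE 0.08 and adjusted p = 8.37e-08. Passage 22 had the highest HSPA8 level with WA, unlike for HSPA6. The nucleotide exchange factors HSPH1 (3.28), HSPA4 (1.36) and HSPA4L (1.37), which reload HSP70 with ATP, also rose on the log2 scale. HSPA5, the HSP70 of the endoplasmic reticulum, read 1055, 1124 and 1032 CPM untreated and 1069.8, 1384 and 1175 with WA (log2 fold change 0.17 with SE 0.07 and adjusted p = 0.117). HSPA9, the mitochondrial HSP70, also missed the threshold (adjusted p = 0.0614). Of the 13 tested HSP70 genes 7 rose and none fell (53.8% called, beside 24.1% of all genes tested). Their median was 0.51 against 0.01 over all genes tested.

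Of the 25 tested HSP40 (DNAJ) genes, which hand clients to HSP70, 11 rose and none fell (44% called, beside 24.1% of all genes tested). The family's median was 0.03. DNAJB1, the partner of HSP70 in stress, went from 184, 189 and 146 to 4492, 2675 and 8464 CPM (log2 fold change 4.76 with SE 0.36 and adjusted p = 3.07e-06). DNAJA1 (1.88), DNAJB2 (2.39), DNAJB4 (2.703) and DNAJB6 (1.32) also rose. DNAJA4 read 0.363, 0.258 and 0.348 CPM untreated and 15.4, 5.44 and 19.6 with WA, with a log2 fold change of 5.32 with SE 0.297 and adjusted p = 3.34e-07. These are 7, 5 and 7 reads untreated and 285, 102 and 359 with WA at passages 16, 22 and 23.

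Of the 16 tested genes of HSP90 and its co-chaperones 10 rose and 2 fell (75% called, beside 24.1% of all genes tested). The list's median was 1.06, and the medians of the 3 passage pairs lay between 0.99 and 1.17. HSP90AA1, the inducible cytosolic HSP90, had the smallest p of all genes: it read 671, 697 and 808 CPM untreated and 7841, 6950.4 and 9932 with WA, a log2 fold change of 3.49 with SE 0.08 and adjusted p = 1.49e-10. Its share of all counted reads was 0.0697% to 0.0839% untreated and 0.690% to 0.970% with WA. HSP90AB1, the constitutive form, went from 2214, 2573 and 2945 to 6778, 6947 and 7715 CPM (1.48 with SE 0.07 and adjusted p = 9.24e-08). The co-chaperones CHORDC1 (2.64), FKBP4 (1.36), CACYBP (1.303), PPID (1.24), STIP1 (1.17), PTGES3 (1.06), SUGT1 (1.05) and AHSA1 (0.98) lay close together on the log2 scale apart from CHORDC1. The members that fell were STUB1 (-0.41), a ubiquitin ligase that acts on chaperone clients, and TRAP1 (-0.33), the mitochondrial HSP90. HSP90B1, the HSP90 of the endoplasmic reticulum, had a log2 fold change of 0.05 with SE 0.07 and adjusted p = 0.641.

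Among the small heat shock proteins and BAG factors 2 of 9 tested genes passed (22.2%, near the 24.1% of all genes tested). HSPB1 (HSP27), a holdase for unfolded proteins, rose from 21.6, 23.7 and 21.9 to 383, 190.2 and 546 CPM (3.94 with SE 0.31 and adjusted p = 4.11e-06). BAG3, which couples HSP70 to autophagy, rose from 59.2, 64.6 and 54.5 to 1445, 814 and 1923 CPM (4.47 with SE 0.299 and adjusted p = 1.3e-06). Of the 10 subunits and partners of the chaperonins 6 rose (60% called, beside 24.1% of all genes tested). They were led by the mitochondrial pair HSPD1 (1.56) and HSPE1 (0.95). For HSPE1 the pairs differed, with log2 changes of 1.26, 0.28 and 1.25 at passages 16, 22 and 23, and without the block it missed the threshold (adjusted p = 0.0702). SERPINH1, the collagen chaperone HSP47, rose from 1.19, 0.155 and 0.05 to 32.8, 4.38 and 41.98 CPM (5.81 with SE 0.79 and adjusted p = 0.00031). Its untreated levels rest on 23, 3 and 1 reads, and its log2 fold change was 4.77 without the untreated library of passage 23 and 7.699 without the WA library of passage 16. None of the 4 tested genes of the heat shock factor list passed (HSF1, HSF2, HSF4 and HSBP1, the last a heat shock factor binding protein). HSF1 itself read 4.82, 5.48 and 6.21 CPM untreated and 3.85, 3.63 and 5.46 with WA.

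**Figure D2:**
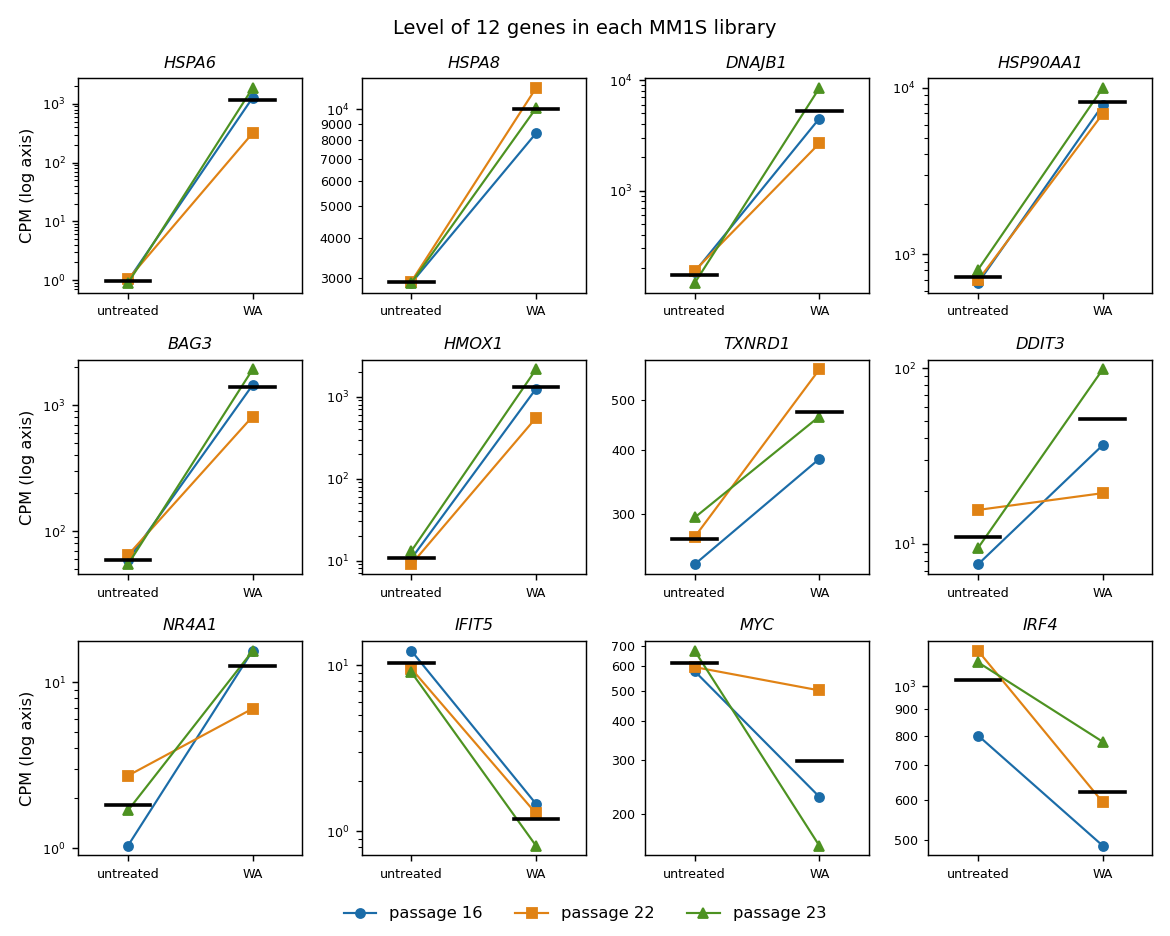
Level (CPM, log axis) of 12 genes in each MM1S library, with the untreated and the WA culture of a passage joined by a line and the group mean drawn as a black bar. For HSPA6, DNAJB1 and HSP90AA1 every WA point lies above every untreated point, for IFIT5 below, and for DDIT3, NR4A1 and MYC the passage 22 pair (orange squares) moved least.

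The promoters of the chaperone genes are shown because heat shock elements in them are the known binding sites of heat shock factor 1. Promoter windows of 300 bases (250 before and 50 after the transcription start, RefSeq, GRCh38.p14) were found for 69 of the 77 tested genes of the chaperone lists. The search was for 3 alternating units of the heat shock element, that is GAANNTTC and TTCNNGAA overlapping in a shared unit. Both patterns read the same on either strand. The element was found in 8 of the 33 chaperone genes that rose (24.2%) and in 0 of the 36 that did not rise. Over all tested genes it was found in 45 of 10403 windows (0.433%), and over all RefSeq promoters in 0.608%. The 8 genes were HSPA6, HSPA8, DNAJA1, DNAJB6, HSP90AA1, HSP90AB1, CHORDC1 and HSPD1. A single GAANNTTC or TTCNNGAA stood in 18 of the 33 that rose (54.5%), in 5 of the 36 that did not (13.9%) and in 13.9% of all tested genes. These counts describe letters in a window, with no test, and a gene without a match may have elements elsewhere. Windows of 4 genes with the full element, and of DNAJB1 with separate pairs of units, follow from 250 bases before the start, with the matches in capitals.
HSPA6: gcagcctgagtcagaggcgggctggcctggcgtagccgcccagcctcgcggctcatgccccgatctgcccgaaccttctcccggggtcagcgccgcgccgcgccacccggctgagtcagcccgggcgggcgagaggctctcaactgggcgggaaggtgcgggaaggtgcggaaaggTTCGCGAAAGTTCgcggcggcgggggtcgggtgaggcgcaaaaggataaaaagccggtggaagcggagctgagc
HSP90AA1: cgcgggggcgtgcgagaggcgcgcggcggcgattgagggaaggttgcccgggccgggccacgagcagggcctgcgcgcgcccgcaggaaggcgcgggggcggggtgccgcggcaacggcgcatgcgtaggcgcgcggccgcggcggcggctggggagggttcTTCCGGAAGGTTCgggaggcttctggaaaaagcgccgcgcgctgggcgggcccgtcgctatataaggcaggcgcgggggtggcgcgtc
HSPA8: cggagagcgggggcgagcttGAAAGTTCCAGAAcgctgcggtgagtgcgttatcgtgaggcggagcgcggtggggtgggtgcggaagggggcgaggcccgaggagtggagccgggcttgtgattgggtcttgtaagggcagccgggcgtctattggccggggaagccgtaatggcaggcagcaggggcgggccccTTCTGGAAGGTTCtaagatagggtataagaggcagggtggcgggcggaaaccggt
CHORDC1: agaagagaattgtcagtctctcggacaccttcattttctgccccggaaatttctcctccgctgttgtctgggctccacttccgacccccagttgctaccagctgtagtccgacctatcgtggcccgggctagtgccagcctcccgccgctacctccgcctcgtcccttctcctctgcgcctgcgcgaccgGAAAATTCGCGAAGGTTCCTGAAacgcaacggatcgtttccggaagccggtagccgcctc
DNAJB1: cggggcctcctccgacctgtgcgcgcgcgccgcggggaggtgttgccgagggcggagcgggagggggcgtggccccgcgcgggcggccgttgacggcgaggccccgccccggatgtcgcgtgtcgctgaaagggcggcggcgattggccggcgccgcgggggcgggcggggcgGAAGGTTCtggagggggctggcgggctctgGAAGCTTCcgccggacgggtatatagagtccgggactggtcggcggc

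These windows lie at chr1:161524290-161524539 (plus strand) for HSPA6, chr14:102087045-102087294 (minus strand) for HSP90AA1, chr11:123062137-123062386 (minus strand) for HSPA8, chr11:90223050-90223299 (minus strand) for CHORDC1 and chr19:14518398-14518647 (minus strand) for DNAJB1, each ending at the base before the annotated start of the gene in GRCh38.p14. HSP90AA1 has 2 and DNAJB1 has 3 annotated starts in the table, and the start whose window held the match is shown. In HSPA6 the element began 74 bases before the start, in HSP90AA1 88 bases, and in HSPA8 the matches began 230 and 55 bases before it. In CHORDC1 3 overlapping matches formed 1 longer run, with the first match 60 bases before the start.

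Of the 22 tested ubiquitin and autophagy receptor genes 9 rose and 3 fell (6 and 0 without the block, and 7 to 13 called when 1 library was left out), and proteasome subunits with few exceptions did not pass. UBB, a polyubiquitin gene, rose from 497, 475 and 452 to 1083, 815 and 976 CPM (1.004 with SE 0.08 and adjusted p = 5.41e-06). ZFAND2A (AIRAP), a proteasome-associated stress protein, had a log2 fold change of 3.03, and the autophagy gene GABARAPL1 of 1.403. Of the 37 tested proteasome subunits, PSMD10 rose (0.31), PSMB5 fell (-0.28), and 35 did not pass, with a median of -0.10. Neither PSMD10 nor PSMB5 passed without the block. The share called was 54.5% of the ubiquitin and autophagy list and 5.41% of the proteasome subunits, beside 24.1% of all genes tested.

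HMOX1, heme oxygenase 1, which breaks down heme and is induced by oxidants, electrophiles and heat, rose from 10.6, 8.99 and 13.1 to 1246, 551 and 2149.8 CPM (6.75 with SE 0.24 and adjusted p = 7.5e-09). Its groups were separated by far more than the spread among libraries, and passage 22 again had the lowest WA level. Of 19 tested NRF2 targets of the glutathione and thioredoxin systems 9 rose and none fell (47.4% called, beside 24.1% of all genes tested). Their median was 0.26. OSGIN1, an oxidative stress inhibitor of growth, was low at 0.881, 0.517 and 0.447 CPM and reached 9.698, 6.41 and 7.04 CPM (3.65 with SE 0.203 and adjusted p = 3.34e-07). GCLM, the modifier subunit of the enzyme that limits glutathione synthesis, rose from 22.3, 25.3 and 26.4 to 47.8, 68.5 and 65.3 CPM (1.28 with SE 0.11 and adjusted p = 7.26e-06). Thioredoxin reductase TXNRD1 (0.803), sulfiredoxin SRXN1 (1.01), the quinone reductase NQO1 (1.11) and the catalytic glutathione subunit GCLC (0.503) rose by less. For TXNRD1 and SRXN1 the pair of passage 22 changed most, with log2 changes of 0.68, 1.08 and 0.65 for TXNRD1 and 0.82, 1.24 and 0.95 for SRXN1 at passages 16, 22 and 23.

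The cystine transporter SLC7A11, which feeds glutathione synthesis and belongs to both the NRF2 and the ATF4 targets, had log2 changes of 2.34, 0.75 and 2.29 at these passages (fitted 1.796 with SE 0.32 and adjusted p = 0.00183). FTL, the ferritin light chain, rose from 991, 1694 and 1915 to 2031, 3197 and 3754 CPM (0.97 with SE 0.08 and adjusted p = 1e-05). The FTL pairs moved alike, and FTL missed the threshold without the block (adjusted p = 0.0749). TFRC, the transferrin receptor that brings iron in, fell from 405, 384 and 442 to 146, 297 and 241 CPM (-0.903 with SE 0.15 and adjusted p = 0.00127). SLC48A1, a heme transporter, rose (0.72). The small MAF factors MAFF (1.13) and MAFG (0.91), partners of NRF2, and its competitor BACH1 (0.52) were higher, whereas NFE2L2 itself had 0.18 with SE 0.103 and adjusted p = 0.232 and KEAP1 -0.16 with SE 0.09 and adjusted p = 0.244. The pattern TGACNNNGC of the antioxidant response element, searched on both strands, stood in 3 of the 8 promoter windows of the NRF2 targets that rose, in 2 of the 6 of those that did not, and in 19.7% of all tested genes. For GCLM, the window at chr1:93909431-93909680 (minus strand, GRCh38.p14) is shown, where the match in capitals began 34 bases before the start.
GCLM: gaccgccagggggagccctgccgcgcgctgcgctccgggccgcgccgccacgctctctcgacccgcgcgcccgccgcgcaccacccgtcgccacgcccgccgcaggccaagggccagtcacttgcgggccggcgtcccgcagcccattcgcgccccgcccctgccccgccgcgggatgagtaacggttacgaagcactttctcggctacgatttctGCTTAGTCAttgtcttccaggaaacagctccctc

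Of 21 tested genes of the integrated stress response 10 rose and none fell (5 without the block, and 4 to 17 past the threshold when any 1 library was left out), and the median of the fitted log2 changes was 0.68. The share called was 47.6%, beside 24.1% of all genes tested. The median within a pair was 0.80 at passage 16, 0.07 at passage 22 and 1.37 at passage 23. DDIT4 (REDD1), an inhibitor of mTORC1, had log2 changes of 3.54, 1.503 and 4.63 (fitted 3.29 with SE 0.45 and adjusted p = 0.000342). PPP1R15A (GADD34), which reverses the phosphorylation of eIF2α, had 2.95, 1.01 and 3.42 (fitted 2.49 with SE 0.52 and adjusted p = 0.00497). DDIT3, which encodes CHOP, read 7.62, 15.5 and 9.45 CPM untreated and 36.4, 19.4 and 98.2 with WA (2.002 with SE 0.56 and adjusted p = 0.022, and adjusted p = 0.057 without the block). Without the untreated library of passage 16 the adjusted p of DDIT3 was 0.14, and that of PPP1R15A was 0.0626. CHAC1, which degrades glutathione, had pair changes of 3.52, -1.12 and 3.67, opposite in sign at passage 22, and did not pass (adjusted p = 0.0932). The C/EBP-ATF response element TGATGNAA, searched on both strands, stood in 1 of the 8 windows of the genes of this list that rose, in 4 of the 9 of those that did not, and in 2.84% of all tested genes.

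The untreated culture of passage 22 stood apart in these genes. Its level was the highest of the 3 untreated libraries in 20 of the 21 tested genes of the list (95.2%), against 26.3% of all tested genes. For ATF4 the untreated levels were 435, 856 and 544 CPM at passages 16, 22 and 23 and the WA levels 716, 672 and 919 CPM, so that passage 22 was the highest before and the lowest after WA. CHAC1 read 4.66, 58.01 and 15.9 CPM untreated and 58.8, 26.4 and 207 with WA. SLC3A2, the heavy chain of the large amino acid transporters, read 99.1, 243 and 169 CPM untreated and 402, 302 and 638 with WA (1.43 with SE 0.27 and adjusted p = 0.00258). SLC7A5, its light chain LAT1, rose by 1.07 on the log2 scale. Of 15 tested amino acid transporters 4 rose and none fell (3 and 0 without the block, and 2 to 6 called when 1 library was left out). Of 20 aminoacyl-tRNA synthetases 1 rose and 4 fell (0 and 1 without the block, and 0 to 8 called when 1 library was left out). The shares called, 26.7% of the transporters and 25% of the synthetases, were near the 24.1% of all genes tested. Without the untreated library of passage 22 the median of the fitted log2 changes of the integrated stress response list was 1.03.

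Of 29 tested genes of the unfolded protein response of the endoplasmic reticulum 5 rose and 3 fell (2 and 0 without the block, and 3 to 10 called when 1 library was left out), with a median of 0.05. The share called, 27.6%, was near the 24.1% of all genes tested. DNAJB9, a co-chaperone of HSPA5 (0.62), and EIF2AK3, the sensor kinase PERK (0.47), were among those that rose. XBP1, the main transcription factor of this response in plasma cells, read 1169, 1290.3 and 1239 CPM untreated and 1163, 1255 and 1020.3 CPM with WA (-0.11 with SE 0.11 and adjusted p = 0.525).

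**Figure D3:**
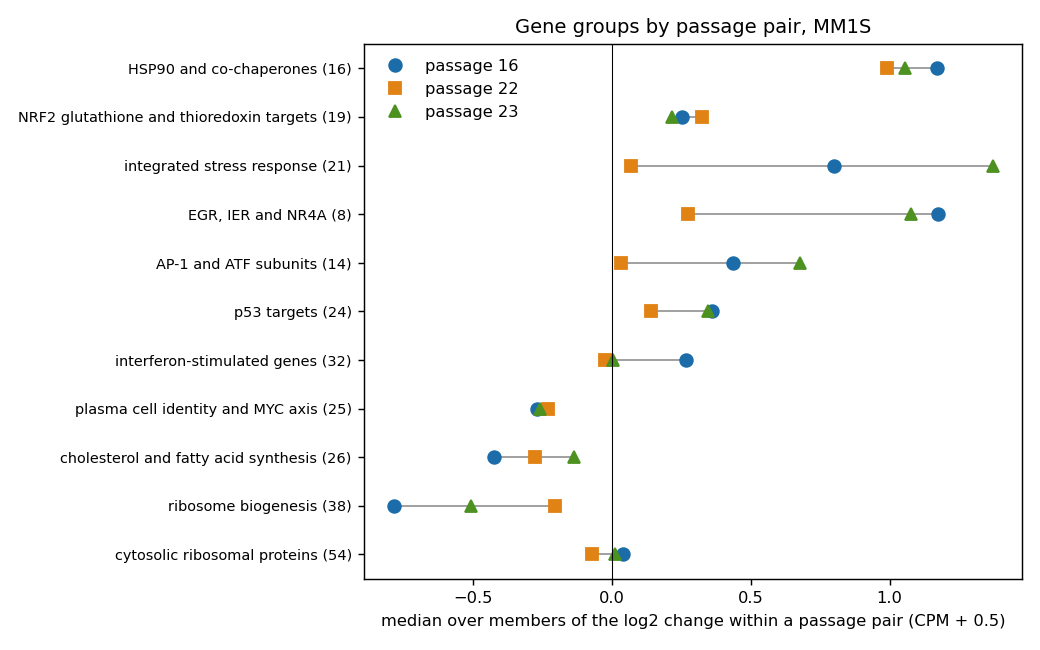
Median over the tested members (number in parentheses) of the log2 change between the WA and the untreated culture of a passage, computed on CPM plus 0.5. The 3 passages agree to within 0.2 for the HSP90 and NRF2 glutathione lists and for the plasma cell list, whereas the integrated stress response runs from 0.07 at passage 22 to 1.37 at passage 23.

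Immediate early genes moved unevenly. NR4A1, an orphan nuclear receptor, rose from 1.04, 2.74 and 1.69 to 15.5, 6.94 and 15.4 CPM (2.74 with SE 0.41 and adjusted p = 0.000619), and the AP-1 subunit FOSL2 from 15.4, 18.9 and 20.4 to 45.3, 32.8 and 72.3 CPM (1.401 with SE 0.23 and adjusted p = 0.00106). FOS was not called, with pairs of 0.18, -1.19 and 0.96, and JUN missed the threshold (1.32 with SE 0.47 and adjusted p = 0.059). ATF3, which is also an integrated stress response gene, had 1.63 with SE 0.44 and adjusted p = 0.017, and adjusted p = 0.0565 without the block. Of the 8 tested EGR, IER and NR4A genes 4 rose (3 and 0 without the block, and 2 to 5 called when 1 library was left out). Of the 14 tested AP-1 and ATF genes 4 rose and 1, MAF, fell (1 and 1 without the block, and 2 to 7 called when 1 library was left out). The shares called, 50% of the EGR list and 35.7% of the AP-1 list, stood beside 24.1% of all genes tested. RHOB, a small GTPase of the stress response, rose from 77.6, 80.3 and 69.5 to 426, 197 and 542 CPM (2.24 with SE 0.28 and adjusted p = 0.000148), and the Kruppel-like factor KLF7 by 1.601 on the log2 scale. TSC22D3, which encodes the glucocorticoid-induced leucine zipper, went from 26.9, 84.8 and 37.6 to 311, 138 and 546 CPM (2.74 with SE 0.52 and adjusted p = 0.0028), with its smallest pair change at passage 22 (3.504, 0.701 and 3.84).

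Chemokine and interferon-induced transcripts were among the largest decreases. IFIT5, an RNA-binding interferon-induced protein, fell from 12.2, 9.51 and 9.05 to 1.46, 1.28 and 0.819 CPM (-3.11 with SE 0.25 and adjusted p = 4.86e-06), and RTP4 from 13.6, 9.09 and 9.55 to 2.87, 1.87 and 1.36 CPM (-2.41 with SE 0.17 and adjusted p = 1.88e-06). Neither gene had overlapping groups. CCL3L1, a copy of the chemokine MIP-1α that is made by myeloma cells and draws osteoclasts, fell from 13.8, 26.04 and 16.1 to 1.57, 4.27 and 3.06 CPM (-2.67 with SE 0.18 and adjusted p = 1.39e-06), and the entry CCL3_2 had -2.12. Copies of CCL3 share sequence, so that their reads are uncertain. The receptor CCR2 (-2.32) and the chemokine CXCL10 (-1.75) fell on the log2 scale. The groups of CXCL10 and of CCL3_2 overlapped (13.3, 2.94 and 4.87 CPM for CXCL10, and 3.09, 1.17 and 1.64 with WA). DKK1, a Wnt inhibitor that myeloma cells secrete in bone, fell from 7.93, 7.44 and 7.01 to 1.03, 1.87 and 1.09 CPM (-2.49 with SE 0.24 and adjusted p = 1.92e-05). BCL2A1, an NF-kB target of the BCL2 family, read 0.622, 0.62 and 0.447 CPM untreated and 0.217, 0.107 and 0.055 with WA (-2.11 with SE 0.49 and adjusted p = 0.0087). Every library was under 1 CPM for BCL2A1, so that its fold change rests on few reads.

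The interferon-stimulated genes did not move as a group: of 32 tested 8 rose and 8 fell (1 and 3 without the block, and 6 to 17 called when 1 library was left out), and the median was 0.16. XAF1 (1.88), MX1 (1.29) and PARP9 (1.52) rose while IFIT3 (-1.74) and OAS1 (-0.64) fell, and of these 5 genes IFIT3 passed without the block. The levels of these genes also differed among passages. The untreated library of passage 16 was the highest of the untreated in 23 of the 32, beside 5879 of all 14085 tested genes. MX1 read 22.9, 7.13 and 5.22 CPM untreated and 54.8, 19.1 and 12.01 with WA, so that its groups overlapped although every pair rose. NFKB1, the p105 and p50 subunit of NF-kB, fell from 116, 118 and 114 to 69.5, 77.8 and 74.1 CPM (-0.65 with SE 0.08 and adjusted p = 0.000174), and NFKBIA, its inhibitor and early target, had -0.08 with SE 0.098 and adjusted p = 0.615. Of the 17 tested NF-kB genes 1 rose and 2 fell (0 and 2 without the block, and 2 to 5 called when 1 library was left out). The share called was 17.6% of the NF-kB genes and 50% of the interferon-stimulated genes, beside 24.1% of all genes tested.

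Genes of plasma cell identity and the MYC axis fell in 13 of 25 tested members and rose in 1, with a median of -0.28 (4 lower without the block). Between 8 and 15 of them passed when any 1 library was left out. The share called was 56%, beside 24.1% of all genes tested. IRF4, on which myeloma cells depend, fell from 801, 1171 and 1112 to 488, 594 and 779 CPM (-0.74 with SE 0.11 and adjusted p = 0.00049). MAF, an oncogenic transcription factor of myeloma, fell from 1350.1, 937 and 1015 to 691, 572 and 510.1 CPM (-0.89 with SE 0.09 and adjusted p = 2.22e-05), and the kinase PIM2 from 1748, 1748 and 1906 to 947, 1097 and 900.5 CPM (-0.88 with SE 0.12 and adjusted p = 0.00025). MYC read 579, 597 and 674 CPM untreated and 228, 502 and 158 with WA (-1.23 with SE 0.42 and adjusted p = 0.0493). The MYC pairs were -1.34, -0.25 and -2.09 at passages 16, 22 and 23, and without the block MYC did not pass (adjusted p = 0.177). It also missed the threshold without the untreated library of passage 16 (adjusted p = 0.21) or 23 (adjusted p = 0.296). The cyclins CCND1 (-0.78) and CCND2 (-0.68), PRDM1 (-0.397) and the BCMA gene TNFRSF17 (-0.41) also fell. SLAMF7, the target of an antibody drug for myeloma, was the member that rose, from 753, 819.9 and 753 to 1030.3, 1143 and 1194 CPM (0.53 with SE 0.09 and adjusted p = 0.00109). SDC1 and XBP1 did not pass.

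Ribosome biogenesis had 28 of 38 tested genes lower and none higher (14 lower without the block), with a median of -0.54. Between 10 and 29 of them passed when any 1 library was left out. The share called was 73.7%, beside 24.1% of all genes tested. The largest falls were in NOP16 (59.8, 48.6 and 47.5 CPM untreated and 21.7, 28.1 and 23.7 with WA, -1.08 with SE 0.15 and adjusted p = 0.000404), NOP2 (-0.81) and UTP18 (-0.797), which process ribosomal RNA in the nucleolus. NCL, the abundant nucleolar protein nucleolin, fell by less (-0.37). The list's median was -0.78 at passage 16, -0.21 at passage 22 and -0.51 at passage 23. By contrast, none of the 54 tested cytosolic ribosomal protein genes passed, and their median was -0.02. Of 16 tested snoRNA host genes 6 fell and none rose (2 and 0 without the block, and 2 to 8 called when 1 library was left out). Among those that fell were SNHG12 (-1.099) and SNHG3 (-0.92). Called were 37.5% of the snoRNA host genes, beside 24.1% of all genes tested.

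In metabolism, 14 of 26 tested genes of cholesterol and fatty acid synthesis fell and none rose (3 without the block, and 4 to 15 past the threshold when any 1 library was left out), with a median of -0.29. FASN, fatty acid synthase, read 449, 635 and 652 CPM untreated and 220.0, 421 and 538 with WA (-0.63 with SE 0.12 and adjusted p = 0.00238), and ACLY, which supplies its acetyl-CoA, had -0.502. HK2, a hexokinase of glycolysis, fell from 73.4, 93.97 and 95.96 to 17.8, 53.6 and 37.8 CPM (-1.38 with SE 0.17 and adjusted p = 0.000166), but over 25 glycolysis and hypoxia genes 3 rose and 2 fell (1 and 1 without the block, and 2 to 7 called when 1 library was left out). Of 34 tested oxidative phosphorylation subunits 3 fell (0 and 0 without the block, and 0 to 4 called when 1 library was left out). Of the 30 G2/M genes 1 rose and 5 fell (1 and 1 without the block, and 3 to 7 called when 1 library was left out). The share called was 20% in the glycolysis list and 20% in the G2/M list, beside 24.1% of all genes tested. It was 53.8% in the cholesterol and fatty acid list and 8.82% in the oxidative phosphorylation list.

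**Figure D4:**
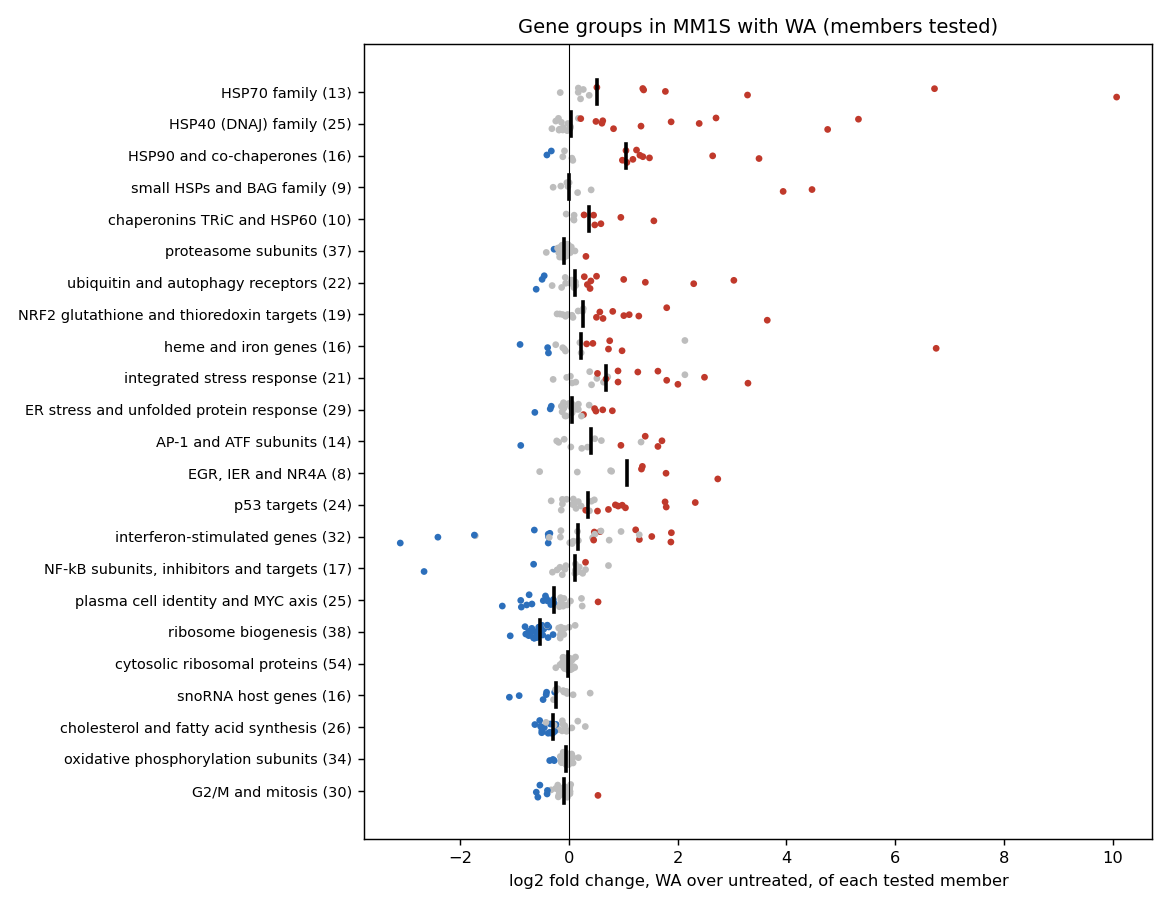
Log2 fold change with WA of each tested member (points, jittered vertically) of 23 gene lists, with the number tested in parentheses and the list's median as a black bar. Red points rose, blue points fell and grey points did not pass an adjusted p of 0.05, and the median of ribosome biogenesis lies to the left of that of the cytosolic ribosomal proteins, which are all grey.

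Of 24 tested p53 targets 10 rose and none fell (8 and 0 without the block, and 8 to 13 called when 1 library was left out). Their median was 0.34, and 41.7% were called, beside 24.1% of all genes tested. CDKN1A, the p21 inhibitor of cyclin-dependent kinases, rose from 42.4, 115 and 104 to 182, 219.9 and 520.5 CPM (1.79 with SE 0.22 and adjusted p = 0.000165), and BBC3 (PUMA), a killer of the BCL2 family, from 11.1, 16.5 and 11.9 to 52.8, 24.5 and 64.96 CPM (1.77 with SE 0.33 and adjusted p = 0.00268). Both are also induced by other stress pathways. PHLDA3, an inhibitor of AKT, went from 2.02, 3.31 and 3.58 to 15.5, 10.5 and 19.1 CPM (2.32 with SE 0.18 and adjusted p = 4.72e-06). FAS (0.98) and TNFRSF10B (0.85), both death receptors, MDM2 (0.52), which degrades p53, and TIGAR (0.72) rose by less. In the BCL2 family 4 of 16 tested rose and 1 fell (2 and 1 without the block, and 1 to 6 called when 1 library was left out). The share called was 31.2%, beside 24.1% of all genes tested. The survival gene MCL1 rose from 573, 592 and 509.9 to 767, 697 and 705 CPM (0.37 with SE 0.098 and adjusted p = 0.0159, adjusted p = 0.0739 without the block).

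Whether WA acted alike in the sensitive and the resistant line was tested as the difference between the 2 effects. By edgeR's quasi-likelihood test, 0 of 14085 genes (0%) passed, and 286 had an unadjusted p under 0.05. That is less than the 0.05 share of genes that would fall there if no gene differed, so the test may be too strict here. The lack of calls does not show that the lines responded alike. DESeq2 with the same block called 6, and edgeR without the block called 0. The 6 were PHLDA3, MDM2, TNFRSF10B, EDA2R, GADD45B and DNAJA4, of which PHLDA3, MDM2 and TNFRSF10B are on the p53 list and EDA2R, a death receptor of the TNF family, is a further known p53 target. MM1R untreated read 16.6, 24.97 and 34.3 CPM of PHLDA3 and 27.9, 41.7 and 57.2 with WA at passages 4, 6 and 7, so that the highest WA level of PHLDA3 in MM1S, 19.1 CPM, lay below 2 of the 3 untreated MM1R cultures. The log2 change of PHLDA3 was 2.32 in MM1S and 0.74 in MM1R, a difference of 1.58 (edgeR adjusted p = 0.212). For MDM2 the changes were 0.52 and -0.14, with all 3 pairs up in MM1S and all 3 down in MM1R. For TNFRSF10B they were 0.85 and 0.00, for EDA2R 1.302 and 0.23, and for GADD45B -0.11 and 0.58. DNAJA4 had 1 to 6 reads in every MM1R library, treated or not, beside 102 to 359 in MM1S with WA. The p53 list's median was 0.03 in MM1R, where 6 of the 24 rose and 2 fell. Over all 14085 genes tested, 4094 passed in MM1R. The lines share no passage number, so that line and passage cannot be told apart.

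**Figure D5:**
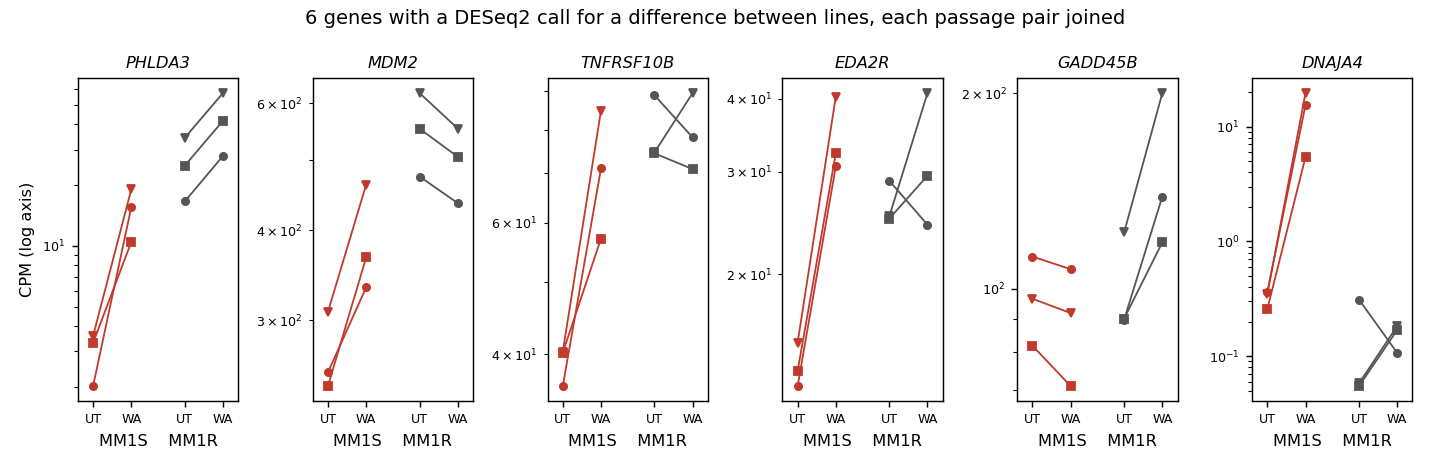
Level (CPM, log axis) of the 6 genes that DESeq2 called for a difference between lines, with the untreated (UT) and the WA culture of each passage joined, MM1S in red and MM1R in grey. MDM2 rose in the 3 MM1S pairs and fell in the 3 MM1R pairs, and DNAJA4 in MM1S went from under 1 CPM to between 5.44 and 19.6 CPM.

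BTK, the kinase that the study followed, fell from 10.9, 8.01 and 7.76 CPM untreated to 5.15, 7.85 and 5.62 CPM with WA at passages 16, 22 and 23 (-0.52 with SE 0.17 and adjusted p = 0.0409). The pairs were -1.02, -0.03 and -0.43, the groups overlapped, and without the block BTK did not pass (adjusted p = 0.0751). Without the untreated library of passage 16 its adjusted p was 0.385. Of 46 tested genes of the B-cell receptor pathway 8 rose and 12 fell (4 and 5 without the block, and 7 to 24 called when 1 library was left out). The share of this pathway called was 43.5%, beside 24.1% of all genes tested. Among its other members the phosphoinositide 3-kinase subunit PIK3CG fell from 142, 154 and 173 to 78.99, 82.1 and 74.9 CPM (-0.99 with SE 0.12 and adjusted p = 0.000174), whereas PIK3CD rose (0.91). NR3C1, the glucocorticoid receptor, read 152, 95.5 and 89.05 CPM untreated and 131, 95.3 and 86.2 with WA (-0.09 with SE 0.103 and adjusted p = 0.575). Of 20 tested genes of the receptor and its targets 8 rose and 1 fell (3 and 0 without the block, and 4 to 11 called when 1 library was left out). The share called was 45%, beside 24.1% of all genes tested. FKBP4 and PTGES3 of this list are on the HSP90 list as well, and FKBP5, a classical target, had -0.09 with SE 0.09 and adjusted p = 0.55.

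Further genes with the largest changes belong to no list, apart from PGF among the bone disease factors. PGF, placental growth factor, had 0, 0 and 3 reads untreated at passages 16, 22 and 23, and its CPM with WA was 9.102, 6.99 and 16.2, a ratio of summed counts of 210.3 (95% exact interval 71.6 to 1023). RFPL2 had 0, 2 and 2 reads untreated and 9.698, 3.15 and 5.404 CPM with WA, a ratio of 89.2 (34.5 to 329.3). P4HA2, a collagen prolyl hydroxylase, rose from 6.79, 6.77 and 6.07 to 111, 54.9 and 65.01 CPM (3.500 with SE 0.16 and adjusted p = 7.97e-08) and was among the 10 smallest p. ACTRT3, an actin-related gene, rose from 0.725, 0.672 and 0.398 to 22.2, 8.700 and 26.6 CPM (4.93 with SE 0.35 and adjusted p = 1.92e-06). RP9P (4.52), a pseudogene that may share reads with RP9, had 1, 5 and 4 reads untreated and 102, 43 and 84 with WA. PPP1R26-AS1 (4.49) had 1, 3 and 6 reads untreated and 154, 31 and 53 with WA. Its pair changes were 4.00, 1.72 and 2.09 at passages 16, 22 and 23. Reads of an antisense gene cannot be assigned to a strand here. NEAT1, the long noncoding RNA of paraspeckles, is abundant and rose from 425, 427 and 456 to 2910.1, 1289.8 and 2355 CPM (2.25 with SE 0.19 and adjusted p = 7.26e-06).

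Among the largest decreases outside the lists, SOX2, a stem cell transcription factor, fell from 130.5, 54.5 and 50.02 to 28.1, 22.7 and 16.2 CPM (-1.71 with SE 0.15 and adjusted p = 9.28e-06). FJX1 (-1.75), HPDL (-1.64), ARHGAP17 (-1.68) and C11orf96 (-2.35) fell on the log2 scale with groups that did not overlap. The uncharacterised loci LOC107987437 (-2.46), LOC728989 (-2.03) and LOC648987 (-2.01) also fell, LOC728989 only with the block. Of 13 tested histone genes, many of which make transcripts without a poly(A) tail, 4 rose and none fell (2 and 0 without the block, and 2 to 6 called when 1 library was left out), among them HIST1H1C (11.1, 11.9 and 11.5 CPM untreated and 33.2, 23.1 and 31.1 with WA, 1.33 with SE 0.18 and adjusted p = 0.000341). Of 379 tested numbered ZNF genes, most of them zinc finger proteins, 79 rose and 19 fell (34 and 12 without the block, and 34 to 125 called when 1 library was left out). Their median was 0.19 against 0.01 over all genes tested. The shares called, 30.8% of the histone genes and 25.9% of the ZNF genes, stood beside 24.1% of all genes tested. The splicing kinase CLK1 rose from 92.3, 83.1 and 75.6 to 221, 126 and 242 CPM (1.18 with SE 0.299 and adjusted p = 0.0132). VIM, whose product vimentin is a known target of WA, read 168, 375 and 405 CPM untreated and 132, 266 and 289 with WA (-0.44 with SE 0.07 and adjusted p = 0.00115, adjusted p = 0.4 without the block).

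In the lists not yet described, 5 of 14 tested GADD45 and growth arrest genes rose and 2 fell (5 and 1 without the block, and 5 to 8 called when 1 library was left out). Of 14 Kruppel-like factors 5 rose and 3 fell (2 and 1 without the block, and 3 to 8 called when 1 library was left out). Of 8 MAPK phosphatases (DUSP) 1 rose and 2 fell (1 and 0 without the block, and 0 to 5 called when 1 library was left out). Among 12 genes of MHC class I presentation 1 rose (0 and 0 without the block, and 0 to 1 called when 1 library was left out). Of 13 bone disease and homing factors 3 rose and 3 fell (3 and 1 without the block, and 3 to 6 called when 1 library was left out). Of 18 CLK kinases and SR splicing factors 4 rose and 5 fell (2 and 2 without the block, and 3 to 10 called when 1 library was left out). Of 18 vimentin, tubulin and actin genes 3 rose and 4 fell (2 and 1 without the block, and 4 to 12 called when 1 library was left out). Of 4 metallothionein and zinc response genes 1 fell (25%). The shares called in these lists ran from 8.33% for MHC class I presentation to 57.1% for the Kruppel-like factors, beside 24.1% of all genes tested.

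Among the MM1S libraries, the number of calls rested most on passages 16 and 23. Without either library of passage 16, 1283 to 1288 genes passed, and without either of passage 23, 1617 to 1618, whereas 2874 to 2876 passed without either of passage 22. The estimate of the spread is shared with MM1R, and the number also moved when an MM1R library was left out. It was 2912 without the MM1R WA library of passage 6 and 4133 without that of passage 7. Passage 22 had the smallest overall response, with 209 genes higher by at least 2-fold against 468 at passage 16 and 432 at passage 23, among 12158 genes. Among all genes that were called higher, the WA culture of passage 22 was the lowest of the 3 in 51.7%, beside 34.6% of all tested genes. Of the 126 called genes named with a fold change, 107 kept their call when any 1 library was left out. The 19 that did not were ATF3, BACH1, BCL2A1, BTK, CLK1, DDIT3, EIF2AK3, IFIT3, MAFF, MCL1, MX1, MYC, NCL, PPP1R15A, PSMB5, PSMD10, STUB1, TNFRSF17 and TRAP1, and most of them missed the threshold without a library of passage 16 or 23.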

How the data were processed

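RNA from untreated MM1S and MM1R cells and from cells exposed to WA was sequenced in 12 libraries, 3 for each line and treatment. The authors checked the reads with FastQC 0.11.5, mapped them with STAR 2.7.3a to hg19 and deposited raw read counts per gene. The annotation and the strand setting are not given in the sources used here. The deposited table holds 43735 entries, of which 26497 had a read, and 4743 are numbered copies of another symbol. A deposited table of counts divided by size factors was not used.

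From the counts, edgeR 4.0.16 (R 4.3.3) was used with TMM factors and filterByExpr (minimum count 10), which left 14085 genes. One quasi-likelihood model over the 12 libraries had passage within line as the block and a WA effect for each line, and its contrast of the 2 effects gave the difference between lines. P-values were adjusted over all genes by the Benjamini-Hochberg method. CPM values use TMM-scaled library sizes, and changes within a pair are log2 of CPM plus 0.5. Fold changes of genes with 1 to 3 untreated reads are ratios of summed counts, each per effective library size, with exact 95% intervals. The pairing comes from the passage number in the labels. The deviations of the paired cultures from their group means correlated across genes at 0.744, 0.262 and 0.491 (passages 16, 22 and 23), although the WA culture of passage 22 correlated more with the untreated culture of passage 23 (0.419). The fit without the block, DESeq2 1.42.0, other scaling and filters, and fits without each library were alternatives. The fits were tested on simulated counts.

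The genes named were the 15 largest increases and decreases among called genes whose mean level was 1 CPM or more and whose 3 pairs moved alike, the 10 with the smallest p, members of the 43 gene lists, the 5 with the smallest p for the difference between lines, BTK and NR3C1. Genes outside that rule were chosen after their values were seen: NEAT1, RNR1, RNR2. The members and lists were chosen with earlier results of these data known. Of the 1378 genes on the lists 1161 were tested. The labels name no batch. Replicate libraries differed by more than sampling noise, so none was a duplicate. Promoter sequences are from RefSeq (GRCh38.p14), matched by symbol. Some items are not reported here.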

Additional observations from a re-analysis of the deposited data

Results flagged for a closer look

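The effect of WA differed between MM1S and MM1R in 6 genes by DESeq2's test of the difference itself with the passage block. By edgeR's quasi-likelihood test of the same difference it differed in none. In that test 286 genes had an unadjusted p under 0.05, less than a 0.05 share of the 14085 tested, so it may be too strict. The log2 change in MM1S minus that in MM1R was 1.57 for PHLDA3 (DESeq2 adjusted p = 4.36e-05, edgeR adjusted p = 0.212), 0.65 for MDM2 (0.000147 and 0.212), 0.84 for TNFRSF10B (0.00983 and 0.595), 1.06 for EDA2R (0.00983 and 0.595), 5.16 for DNAJA4 (0.000147 and 0.411) and -0.70 for GADD45B (0.0025 and 0.41). All 3 MM1S pairs of MDM2 rose and all 3 MM1R pairs fell. Among the 24 tested p53 targets the difference had an unadjusted edgeR p under 0.05 in 8, and it was positive in 19. Other lists also held such genes. They were 4 of 13 histone genes (2 of the 13 positive) and 3 of 14 AP-1 and ATF genes (4 positive). They were also 2 of 8 EGR, IER and NR4A genes (3 positive), 3 of 14 GADD45 and growth arrest genes (6 positive) and 3 of 18 vimentin, tubulin and actin genes (11 positive). Over all genes tested it was positive in 7509 of 14085.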

How the results depend on the processing

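The passage numbers in the labels pair the cultures. With the block 3399 genes passed for WA in MM1S, and with no replicate block 1476 did. DESeq2 gave 2930 with the replicate block and 1954 without it. An adjusted p of 0.01 left 1682 genes and a log2 fold change of at least 1 left 637. When 1 of the 12 libraries was left out, between 1283 and 4133 genes passed. The lowest number came without the MM1S WA library of passage 16 and the highest without the MM1R WA library of passage 7. Size factors of DESeq2, all genes kept, only genes with 10 reads in each library, and the 6 MM1S libraries alone gave between 3224 and 3746. The share of calls that were higher was 51.7% in the reported fit, 59.6% without the block and 45.6% by DESeq2 with the block.

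For the difference between lines, edgeR called 0 genes with the block, DESeq2 called 6 with it and 1 without it, and edgeR with all low genes kept called 34. Those 34 included the 6 of DESeq2. FOS had the smallest edgeR adjusted p among them (2.28e-13), with a difference of -1.70. DUSP1 (-1.16), JUN (-0.84) and EGR1 (-1.74) were also negative, and ACTG1 (0.67) was positive. With 1 library left out edgeR called 0 to 1. Why the settings differed was not tested. Without a library the remaining culture of its passage adds nothing to the paired comparison, so such a fit rests on 2 pairs in that line.

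Of the 126 called genes named with a fold change, 23 lost the call without the block and 4 by DESeq2 with the block (ATF3, CLK1, DDIT3 and MYC), and none changed direction under any setting. Depth limits genes such as PGF and RFPL2, whose untreated levels rest on 0 to 3 reads, and intervals on them cover counting error only. Those of RP9P and PPP1R26-AS1 rest on 1 to 6 reads.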
